A study of Mus musculus with 32 samples.

Results

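A set of 10 purine nucleotide enzyme genes was followed in single late 2-cell mouse embryos: Ppat, Gart, Paics, Atic, Impdh1, Impdh2, Gmps, Adss, Ampd2 and Ampd3. They are the rows of the deposited table that carry these symbols, 10 of its 34223 genes, and all 10 passed the filter on low values. The genes were chosen by function, and for the difference in normalised counts between the injected groups, which was already known, so their values in that comparison are a description and carry no test here. The embryos were wild type, were conceived by in vitro fertilization (IVF), and were collected 28 h later. All had been microinjected with mRNA for histone H3.3 fused to GFP, and those that glowed were kept. In 16 embryos (Val_LNA) the same injection held an oligonucleotide with locked nucleic acid (LNA), directed against the valine tRNA fragment tRFValCAC in antisense. In the other 16 (Ctrl_LNA) it held a scrambled oligonucleotide with LNA. Both groups therefore share the injection, the H3.3-GFP message and an LNA oligonucleotide, no uninjected embryos were analysed here, and the fragment itself is not read by polyadenylated RNA libraries. The labels give library numbers but no mating or injection day, so every p-value measures the spread between these embryos.

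Purine nucleotides are built stepwise on a ribose phosphate until the ring is closed as inosine monophosphate (IMP). From IMP the pathway forks: the IMP dehydrogenases and GMP synthetase lead to GMP, and adenylosuccinate synthase with adenylosuccinate lyase lead to AMP. AMP deaminases send AMP back to IMP, which joins the branches into a cycle. The egg stores messages for many housekeeping enzymes, and the late 2-cell embryo is clearing them while it transcribes its own genome.

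RefSeq promoter windows, from 250 bases before to 50 after a start on GRCm38.p6, were found for all 10 genes. The E-box CACGTG, a palindrome that reads the same on both strands, was in windows of 4 of the 10 genes (Atic, Paics, Ampd3 and Impdh2). It was in those of 8.09% of the 27025 genes that had such windows. These sites are shown because the E-box was the rarest of the motifs searched over all genes with windows. Each line gives 26 bases with the E-box in capitals, at chr1:71557139-71557164 (Atic), chr5:76951089-76951114 (Paics), chr7:110772516-110772541 (Ampd3) and chr9:108560316-108560341 (Impdh2), all on the plus strand, 5′ to 3′.
Atic: acctcggggtCACGTGgggtcgacac
Paics: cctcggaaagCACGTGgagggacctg
Ampd3: agcagtgggtCACGTGtcagctctgt
Impdh2: gctcgataagCACGTGgttacccagc
The first base of the E-box lay 7 bases before the start in Atic, 203 in Paics, 78 in Ampd3 and 110 in Impdh2. A match describes letters and is not evidence that a factor binds.

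Upstream sequence of Impdh1, Gart and Adss is shown because Adss varied from embryo to embryo against Impdh1 and Gart, which varied together. The stretches contain no annotated exon and lie on the minus strand at chr6:29216365-29216614 (Impdh1), chr16:91646973-91647222 (Gart) and chr1:177796512-177796759 (Adss). Capitals mark the GC box GGGCGG and the CCAAT box CCAAT on either strand, where a reverse match reads CCGCCC or ATTGG.
Impdh1: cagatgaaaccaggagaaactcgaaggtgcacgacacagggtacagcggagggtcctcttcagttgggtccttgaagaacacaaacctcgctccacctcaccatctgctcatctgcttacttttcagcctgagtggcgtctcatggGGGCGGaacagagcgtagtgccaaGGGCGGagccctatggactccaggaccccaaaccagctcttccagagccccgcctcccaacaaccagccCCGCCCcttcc
Gart: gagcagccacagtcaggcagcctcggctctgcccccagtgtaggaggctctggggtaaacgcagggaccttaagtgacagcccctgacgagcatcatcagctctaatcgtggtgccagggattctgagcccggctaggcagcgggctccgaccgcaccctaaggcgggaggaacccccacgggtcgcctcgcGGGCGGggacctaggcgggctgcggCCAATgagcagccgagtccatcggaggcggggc
Adss: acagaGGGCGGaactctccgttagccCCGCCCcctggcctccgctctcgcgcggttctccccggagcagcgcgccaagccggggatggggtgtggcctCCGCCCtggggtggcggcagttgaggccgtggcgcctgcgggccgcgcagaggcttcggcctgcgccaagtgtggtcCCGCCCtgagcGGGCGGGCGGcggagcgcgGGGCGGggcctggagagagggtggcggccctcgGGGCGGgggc
These stretches hold 3 GC boxes in Impdh1, 1 in Gart and 8 in Adss, where a pair of them overlaps, and G and C make up 59.2%, 68.0% and 78.6% of their bases. Impdh1 has another start, whose upstream stretch at chr6:29212298-29212547 is not shown and holds 2 GC boxes with 69.6% G and C. Over the full windows a GC box was found for 9 of the 10 genes and for 38.2% of all genes with windows. A CCAAT box was found for 5 and for 41.1%, and the TATA box TATAAA for 2 (Impdh2 and Gmps) and for 15.7%. Ampd3 was the gene without a GC box.

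Between 2592925 and 6259870 reads per embryo were recovered from the deposited values. Ctrl_LNA 48 stood apart, with 7276 genes detected against 16687 to 20200 in the other 31 embryos, and results are given with and without it where it moves them. In that library Ampd2, Ampd3 and Atic are listed at 0, whereas Gart, Paics and Gmps had their highest value of any embryo. Markers of the 2-cell stage were present in both groups: 11 of 12 were in the table and all 11 passed the filter. Their summed normalised count ran from 5810 to 28696 in Val_LNA and from 2869 to 28321 in Ctrl_LNA embryos. Of 14 cumulus and granulosa cell markers 3 passed the filter, and 11 had a median of 0 in each group. Their summed count ran from 92.2 to 1096 (median 644) in Val_LNA and from 176 to 1071 (median 641) in Ctrl_LNA. Foxl2 and Fshr were at 0 in every Ctrl_LNA embryo, while no marker of this list was at 0 in every Val_LNA embryo.

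Ampd2, an AMP deaminase, had the largest difference of the 10 genes. Its normalised count (reads divided by the authors' size factor) ran from 0 to 224 with a median of 81.1 in Ctrl_LNA, and from 0 to 59.3 with a median of 5.67 in Val_LNA embryos. No read was recovered in 6 of 16 Val_LNA embryos and in 1 of 16 controls, Ctrl_LNA 48, and 16 of 16 Val_LNA embryos had less than the median control. The groups overlapped, but without Ctrl_LNA 48 the lowest control value was 20.1, and 13 of 16 Val_LNA embryos lay below it. Means were 89.2 ± 60.9 in Ctrl_LNA and 12.7 ± 17.9 in Val_LNA (SD, n = 16 each), 7.01 times higher in controls. On the scale of log2(normalised count + 1) the difference, Val_LNA minus Ctrl_LNA, was -3.49 ± 0.70 (SE), and -3.88 ± 0.61 without Ctrl_LNA 48. These are low values, with a median of 91 recovered reads in Ctrl_LNA and 5.5 in Val_LNA, so a 0 at this depth does not show that the message was absent. A library is a whole embryo, so fewer expressing cells and less RNA per cell cannot be told apart, for Ampd2 or the other genes.

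Ampd3, the other AMP deaminase of the set, had similar levels in both groups. Its count ran from 0 to 803 with a median of 238 in Ctrl_LNA and from 63.5 to 523 with a median of 235 in Val_LNA, and 8 of 16 Val_LNA embryos lay on each side of the control median. The log2 difference was 0.23 ± 0.59 (SE), and -0.27 ± 0.35 without Ctrl_LNA 48. The sign in limma over both runs thus changed without that 1 embryo, and it was also negative in edgeR (-0.32) and after centring embryos on their median genes (-0.22). Per kilobase of exon the Ampd3 level was above that of Ampd2 in 16 of 16 Val_LNA embryos and in 14 of 16 controls, with 1 control at 0 for both. Ampd3 made up 94.2% ± 7.54 of the summed Ampd2 and Ampd3 level in Val_LNA (SD, n = 16) and 74.3% ± 16.1 in Ctrl_LNA (SD, n = 15 with reads).

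**Figure D1:**
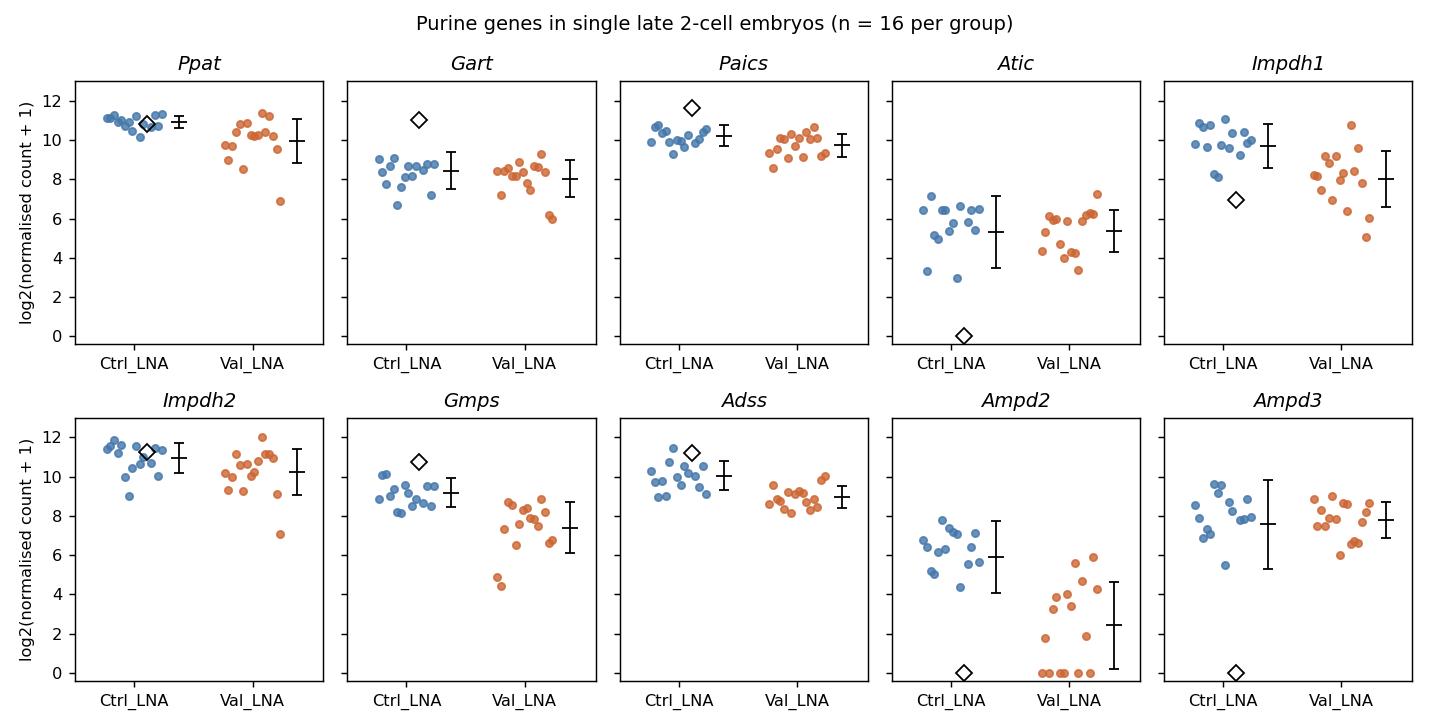
Each point is 1 embryo, with log2(normalised count + 1) on the vertical axis and the injected group on the horizontal axis; black bars give the mean and SD of 16 embryos and the open diamond is Ctrl_LNA 48. Ampd2 and Gmps show all 16 Val_LNA embryos under the median of the controls, while Ampd3 and Atic span a similar range in both groups.

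Of the 3 genes that lead from IMP to GMP, Gmps and Impdh1 passed the limma threshold downwards in Val_LNA embryos and Impdh2 did not. Among all tested genes 1.31% passed downwards, and as the genes were chosen with this contrast known, nothing is read from these calls. Gmps encodes GMP synthetase, the last enzyme of this branch. Its count ran from 278 to 1724 with a median of 552 in Ctrl_LNA and from 20.6 to 464 with a median of 209 in Val_LNA. All 16 Val_LNA embryos had less than the median control and 10 lay below every control. Means were 660.3 ± 382 and 221 ± 136 (SD, n = 16 each), 2.98 times higher in controls, or 2.66 times without Ctrl_LNA 48. The log2 difference was -1.78 ± 0.37 (SE), and -1.67 ± 0.35 without that embryo.

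Impdh1 and Impdh2 encode the IMP dehydrogenases, the rate-limiting step towards GMP. Impdh1 ran from 122 to 2123 with a median of 903 normalised counts in Ctrl_LNA and from 32.8 to 1718 with a median of 289.9 in Val_LNA. The lowest control was Ctrl_LNA 48. Of 16 Val_LNA embryos 15 had less than the median control and 3 had less than every control, or 7 of 16 when Ctrl_LNA 48 is left out. Its log2 difference was -1.69 ± 0.43 (SE), from means of 1037 ± 591 and 393 ± 409 (SD, n = 16 each), and -1.87 ± 0.40 without that embryo.

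Impdh2 did not pass, with all embryos or with any embryo left out. It ran from 512 to 3717 with a median of 2419 in Ctrl_LNA, and from 136 to 4133 with a median of 1387 in Val_LNA, so the Val_LNA group held both the lowest and the highest embryo. The lowest in each group were Val_LNA 14 and Ctrl_LNA 45. Its log2 difference was -0.71 ± 0.33 (SE), from means of 2205 ± 911 and 1519 ± 965 (SD, n = 16 each), with 15 of 16 Val_LNA embryos under the median of the controls. Per kilobase of exon Impdh2 was above Impdh1 in 32 of 32 embryos, and it made up 70.1% ± 9.37 of their summed level in Ctrl_LNA and 81.5% ± 8.07 in Val_LNA (SD, n = 16 each). Without Ctrl_LNA 48 the control share was 68.4% ± 6.68 (SD, n = 15).

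On the AMP side, Adss encodes adenylosuccinate synthase, which commits IMP to AMP. Its count ran from 501 to 2768 with a median of 1036 in Ctrl_LNA, and from 287 to 1047 with a median of 464 in Val_LNA. Of 16 Val_LNA embryos 15 had less than the median control and 9 below every control. Means were 1190.0 ± 651 and 532 ± 219 (SD, n = 16 each), 2.24 times higher in controls, and the log2 difference was -1.08 ± 0.24 (SE). The highest embryo of each group for Adss, Ctrl_LNA 45 and Val_LNA 14, was the lowest of its group for Impdh2.

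None of the 4 genes of the set whose enzymes help build the ring up to IMP passed with all embryos, where 1.31% of all tested genes passed downwards. Ppat, the amidotransferase that takes the committed first step, had the narrowest spread in controls, from 1150 to 2575 with a median of 1924, and ran from 118 to 2618 with a median of 1197 in Val_LNA. The lowest Val_LNA embryos were below every control (6 of 16) and 1 was above every control. Its log2 difference was -0.95 ± 0.28 (SE), and without Ctrl_LNA 48 Ppat passed (-0.96 ± 0.28, SE). Paics, which carries the carboxylase and the following synthetase of the pathway, ran from 614 to 3108 with a median of 1148 in Ctrl_LNA and from 375 to 1630 with a median of 945 in Val_LNA. The log2 difference was -0.49 ± 0.21 (SE), with 13 of 16 Val_LNA embryos under the median of the controls.

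Gart, a trifunctional enzyme of the early steps, depended on Ctrl_LNA 48. Its count in that embryo was 2056, against 104 to 535 in the other controls and 61.1 to 626 in Val_LNA. The control mean was 1.46 times the Val_LNA mean with all embryos and 1.11 times without Ctrl_LNA 48, and the log2 difference was -0.41 ± 0.34 and -0.24 ± 0.29 (SE). Atic, the bifunctional enzyme that closes the ring to IMP, ran from 0 to 140 (median 53.9) in Ctrl_LNA and from 9.53 to 152 (median 57.5) in Val_LNA. Its log2 difference was 0.07 ± 0.53 (SE), and -0.29 ± 0.42 without Ctrl_LNA 48, so its sign also rested on that embryo.

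Of the 10 genes, 4 (Ampd2, Gmps, Impdh1 and Adss) passed an adjusted p under 0.05 downwards in limma and 0 upwards. Among all 15559 tested genes 1.31% passed downwards and 0.881% upwards. As the genes were chosen with this contrast known, nothing is read from the count. The median log2 difference of the 10 genes was -0.83, and that of all tested genes 0.26. Without Ctrl_LNA 48 these medians were -0.83 and 0.07, all 10 genes were below 0, and Ppat also passed (5 genes, against 2.63% of all genes downwards). In edgeR Ampd2, Gmps and Adss passed and Impdh1 did not (1.08% of all genes downwards). Only Ampd2 and Adss passed between the lower runs of library numbers (Val_LNA 1 to 8, Ctrl_LNA 31 to 38) and 0 between the upper runs (13 to 20 and 43 to 50), where each group has 8 embryos and 0.533% and 0.212% of all genes passed downwards. Impdh1 also did not pass without Ctrl_LNA 43 (-1.60) or with no filter on low values, where 3 genes passed, and Adss did not after centring embryos on their median genes (-1.53 ± 0.48, SE).

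Counted per embryo, between 5 and 10 of the 10 genes lay below the control median in Val_LNA (median 8), and between 2 and 8 in Ctrl_LNA (median 4.5). At least 8 genes were below it in 13 of 16 Val_LNA embryos and in 1 of 16 controls. The lower values were thus spread over most Val_LNA embryos and did not sit in a few of them. This describes the same contrast and is not a test.

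**Figure D2:**
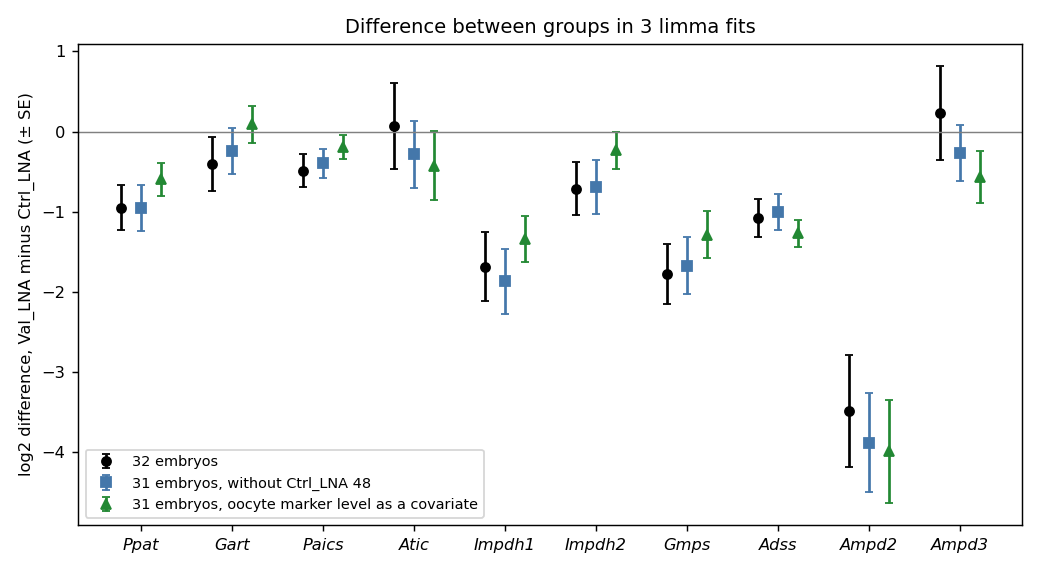
Points are log2 differences, Val_LNA minus Ctrl_LNA, with bars of 1 SE, for the 10 genes in 3 limma fits: all 32 embryos, 31 embryos without Ctrl_LNA 48, and the same 31 embryos with the oocyte marker level as a covariate. Ampd2 lies between -4.00 and -3.49 in these fits, Impdh2 moves from -0.69 to -0.24 with the covariate, and Ampd3 and Atic change sign without Ctrl_LNA 48.

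The rule did not use the levels of the genes within the controls. Per kilobase of exon (the union of GENCODE M21 exons), the mean level in the 16 Ctrl_LNA embryos was 717 ± 296 normalised counts for Impdh2, 444 ± 93.9 for Ppat and 408 ± 183 for Paics (SD). Impdh1 followed with 315 ± 179.6 and Adss with 263 ± 144. Gmps (81.5 ± 47.1), Gart (86.4 ± 87.1) and Ampd3 (56.4 ± 41.6) were lower, and Ampd2 (17.1 ± 11.7) and Atic (7.38 ± 4.87) lowest. The GMP branch therefore held both the most abundant message of the 10, Impdh2, and the scarcer Gmps.

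Neighbours in the order of mean log2 levels were compared within embryos by a two-sided exact sign-flip permutation test, adjusted over 9 pairs. Impdh2 was above Ppat in 13 of 16 embryos (mean log2 difference 0.56 ± 0.16, SE; adjusted p = 0.0169). Adss was above Gmps in 15 of 16 (1.68 ± 0.30; exact permutation adjusted p = 0.000549), the widest step of this order. Ampd3 was above Ampd2 in 14 of 16 (1.49 ± 0.29; exact permutation adjusted p = 0.00275), and Ampd2 above Atic in 12 of 16 (1.04 ± 0.37; adjusted p = 0.0313). The other 5 neighbour pairs did not pass: Ppat and Paics, Paics and Impdh1, Impdh1 and Adss, Gmps and Gart, and Gart and Ampd3. Without Ctrl_LNA 48 the order was the same and 5 pairs passed, as Ppat was then above Paics (0.29 ± 0.10, SE; exact permutation adjusted p = 0.0223). Divided by the longest transcript in place of the exon union, Paics ranked above Ppat, Adss above Impdh1 and Gart above Gmps, and 3 pairs passed. Ampd2 and Atic then no longer passed (0.06 ± 0.40, SE; exact permutation adjusted p = 0.889), while Ampd3 stayed above Ampd2 (1.67 ± 0.29; exact permutation adjusted p = 0.00137).

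**Figure D3:**
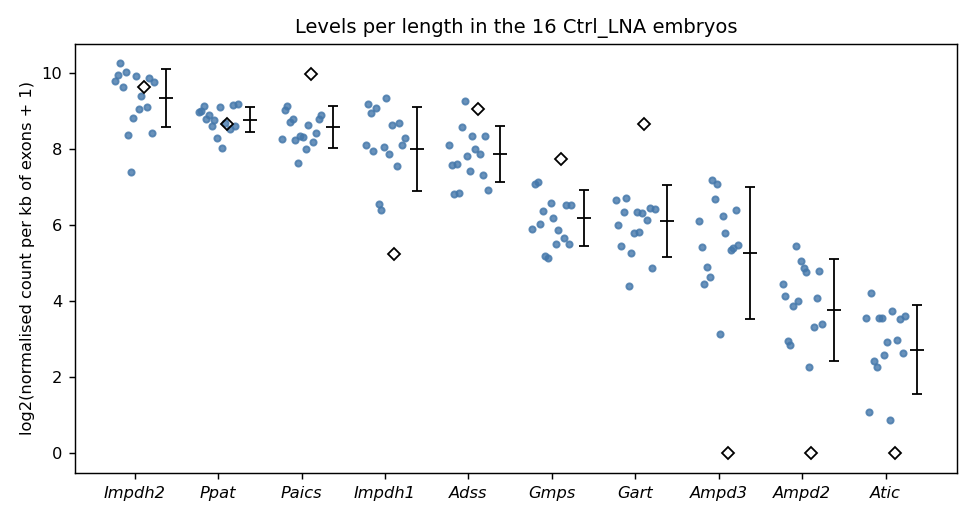
Each point is 1 of 16 Ctrl_LNA embryos, with log2(normalised count per kilobase of exon + 1) on the vertical axis and genes ordered by their mean; bars give mean and SD and the open diamond is Ctrl_LNA 48. The widest step lies between Adss and Gmps, and Ctrl_LNA 48 is at 0 for Ampd3, Ampd2 and Atic.

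Within the groups the genes varied together in a patterned way. Log2 values were centred on the group mean in the 31 embryos without Ctrl_LNA 48, so the difference between the group means does not enter. The groups can still differ in spread and in r. For Ppat the log2 SD was 1.11 in Val_LNA (n = 16) and 0.33 in Ctrl_LNA without 48 (n = 15). Of 10 pairs tested, Paics with Ppat and Ampd2 with Gart passed in Pearson's r. Paics and Ppat rose and fell together (r = 0.64, permutation p = 0.00016, adjusted p = 0.0016; rho = 0.76, permutation p = 1e-05, the smallest these resamples can give, adjusted p = 0.0001). With the 2 embryos farthest from the median of Paics left out r was 0.57, it was 0.87 in the lower runs and 0.49 in the upper runs, and 0.48 in controls and 0.71 in Val_LNA. These genes lie head to head on chromosome 5, their RefSeq starts 276 bases apart, and their annotated exons share 272 bases on opposite strands. The protocol does not mark the strand, so reads there cannot be assigned to Paics or Ppat. An r of this size was not particular to the neighbours. Over the 15 pairs of a set of 6 genes described below, this pair among them, the median r was 0.64.

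Ampd2 varied against Gart (r = -0.50, permutation p = 0.00699, adjusted p = 0.0349). The rank correlation did not pass (rho = -0.40, permutation p = 0.034, adjusted p = 0.17), and r was -0.38 without the 2 embryos farthest from the median of Ampd2. Within the lower and upper runs r was -0.58 and -0.41. With each of the other 8 genes Ampd2 did not pass, r running from -0.42 with Impdh1 to 0.35 with Adss. With pseudocount 8 the pair of Ampd2 and Impdh1 passed in Pearson's r (-0.46, permutation adjusted p = 0.0427) but not in rank correlation (rho = -0.27, permutation adjusted p = 0.296). The relation of Ampd2 to Impdh1 thus turned on the pseudocount.

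Over all 45 pairs, given as a description, 22 correlations were positive and 23 negative, and 39 pairs had the same sign in both groups. Ppat, Gart, Paics, Impdh1, Impdh2 and Gmps, a set of 6 put together after the correlations were seen, had 15 of 15 positive pairs, from 0.41 to 0.83. Adss was negative with all 6 (r from -0.79 to -0.48), and so was Ampd3 (r from -0.60 to -0.38). Both held in the controls alone, with r from -0.89 to -0.57 for Adss and from -0.72 to -0.41 for Ampd3. In the controls alone the 15 pairs of the set of 6 ran from 0.19 to 0.86. The embryos thus ranked broadly from high Impdh2 with low Adss to the reverse, in Ctrl_LNA (r = -0.89) and in Val_LNA (r = -0.77). Ppat followed this ranking less closely in controls. Its r with Impdh2 was 0.56 in Ctrl_LNA and 0.93 in Val_LNA, and with Adss -0.57 and -0.72. All values of an embryo share its library and its size factor.

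**Figure D4:**
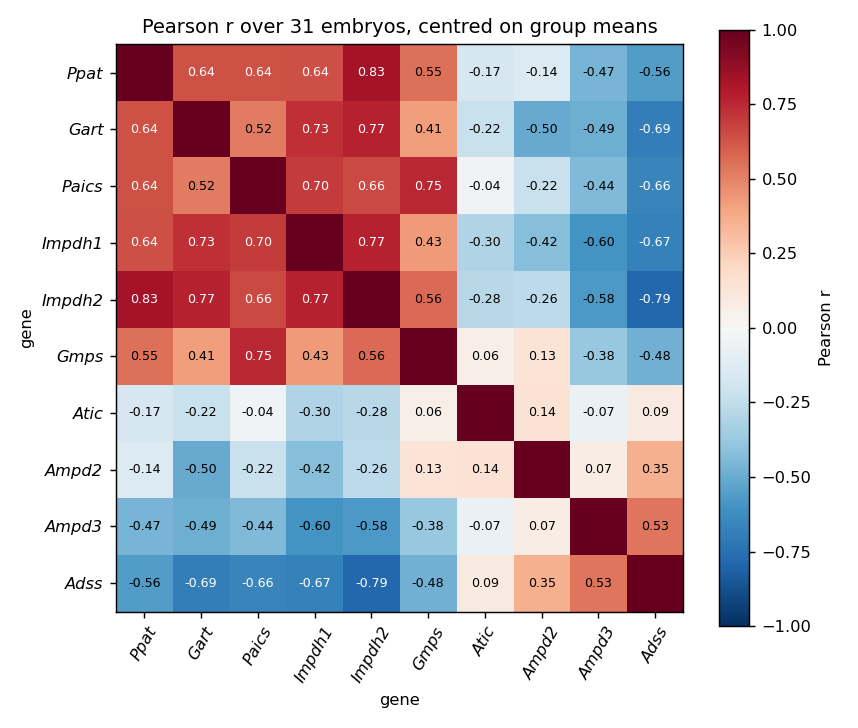
Each cell gives Pearson's r between the genes of its row and column over 31 embryos, after centring log2 values on the group mean; red is positive and blue negative. The block of Ppat, Gart, Paics, Impdh1, Impdh2 and Gmps is positive throughout (0.41 to 0.83), and the Adss row is negative with each of these genes.

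Markers of the oocyte and of the 2-cell stage both moved along the same ranking. All 12 oocyte markers (zona pellucida, egg growth factor and maternal factor genes among them) passed the filter. Their summed count ran from 8540 to 51119 in Val_LNA and from 7297 to 30009 in Ctrl_LNA, and none was at 0 throughout. Their mean log2 level was 9.59 ± 0.67 in Val_LNA (SD, n = 16) and 8.89 ± 1.37 in Ctrl_LNA (SD, n = 16), a difference of 0.69 (two-sided permutation p = 0.0554), and 0.39 without Ctrl_LNA 48 (permutation p = 0.111). The mean log2 level of the 11 markers of the 2-cell stage was 0.80 higher in Val_LNA (permutation p = 0.0491), and 0.54 higher without Ctrl_LNA 48 (permutation p = 0.0983). The relations of the 10 genes to both marker levels were examined after the values were seen, with p adjusted over these 20 relations.

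Over the 31 embryos, again centred on group means, Impdh2 fell as the oocyte marker level rose (r = -0.78, rho = -0.74, permutation p = 1e-05 for both, the smallest these resamples can give, adjusted p = 5e-05 and 4e-05; r = -0.75 without the 2 embryos farthest in marker level). Impdh1 (r = -0.75), Ppat (-0.73), Gart (-0.68), Paics (-0.67) and Gmps (-0.64) did so too. Adss rose with the markers (r = 0.73, rho = 0.73, permutation p = 1e-05 for both, adjusted p = 5e-05 and 4e-05), and so did Ampd3 (r = 0.50, rho = 0.52, permutation adjusted p = 0.00773 and 0.0046). Ampd2 (r = 0.11, permutation adjusted p = 0.604) and Atic (r = 0.21, permutation adjusted p = 0.297) did not pass. In each run and each group alone, r lay between -0.93 and -0.43 for the set of 6, between 0.58 and 0.85 for Adss and between 0.29 and 0.61 for Ampd3. Correlations of the purine genes with recovered reads ran from -0.22 (Adss) to 0.23 (Gmps). The marker levels themselves had an r with recovered reads of -0.07 (oocyte) and -0.39 (2-cell embryo). The part of read number in the relations to either marker level was not tested.

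The 2-cell markers gave relations of the same sign, and 7 of the 10 passed in Pearson's r. Impdh2 (r = -0.60), Paics (-0.55), Gmps (-0.54), Impdh1 (-0.50), Ppat (-0.49) and Gart (-0.45) were negative, and Adss positive (0.58), with permutation adjusted p from 0.0006 to 0.0114. Ampd3 passed in rank correlation (rho = 0.47, permutation adjusted p = 0.0126) and not in Pearson's r (0.38, permutation adjusted p = 0.0507). Ampd2 (0.25) and Atic (0.04) did not pass. The relations were thus not shown to be particular to the oocyte markers, and the difference between the marker sets was not tested.

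**Figure D5:**
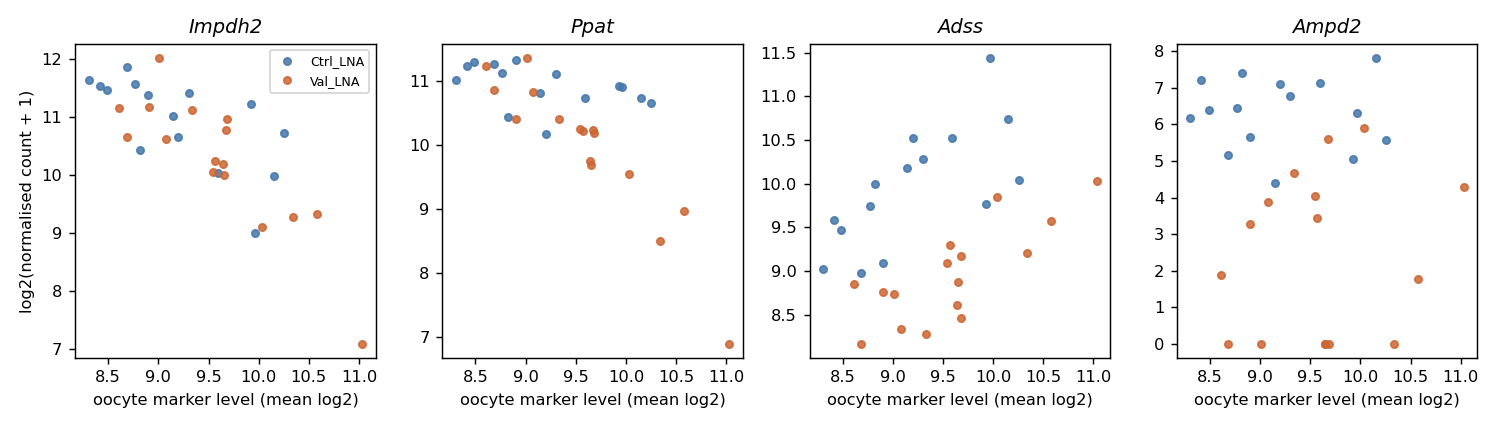
Each point is 1 of 31 embryos (Ctrl_LNA 48 left out), with the mean log2 level of 12 oocyte markers on the horizontal axis and log2(normalised count + 1) of Impdh2, Ppat, Adss and Ampd2 on the vertical axes, which differ in scale. Impdh2 and Ppat decline and Adss rises along the axis in both groups, with Val_LNA points below Ctrl_LNA points for Adss, while Ampd2 shows no trend (r = 0.11).

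With the oocyte marker level as a covariate, a fit added after the data were seen, the log2 difference of Ampd2 was -4.00 ± 0.64 (SE), of Impdh1 -1.34 ± 0.28, of Gmps -1.29 ± 0.29 and of Adss -1.27 ± 0.17 in the same 31 embryos. In those embryos without the covariate the last 3 were -1.87 for Impdh1, -1.67 for Gmps and -1.003 for Adss. The differences of Ppat (-0.60 ± 0.21), Impdh2 (-0.24 ± 0.23) and Paics (-0.19 ± 0.15) were smaller than without it (-0.96, -0.69 and -0.40), and that of Gart was 0.09 ± 0.23. The part of either marker set in these differences was not otherwise tested.

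The runs of library numbers offered a contrast that the choice of genes did not use. In limma, 0 of the 10 genes passed between the upper and lower run of Ctrl_LNA, between those of Val_LNA, or in the difference of the 2 treatment effects, where 0.00643%, 0% and 0% of all 15559 genes passed. At an unadjusted p under 0.05 there was 1 gene, Ampd3, in the first and in the last of these contrasts and 0 in the Val_LNA runs, and edgeR called 0 as well. Ampd3 was lower in the upper run of controls, which holds Ctrl_LNA 48, by a log2 difference of -1.85 ± 0.79 (SE; limma adjusted p = 0.331). Its treatment effects in the runs differed by 2.37 ± 1.12 (adjusted p = 0.817). Without Ctrl_LNA 48 the control runs differed by -0.90 ± 0.49 for Ampd3 (SE; limma adjusted p = 0.523). The treatment effects then differed by 1.42 ± 0.68 (SE; limma adjusted p = 0.831). The Ampd3 difference was -0.95 ± 0.46 in the lower runs and 0.47 ± 0.47 in the upper runs without Ctrl_LNA 48 (SE), so its sign also differed between runs. The Ampd2 difference was -4.22 ± 0.86 in the lower and -2.76 ± 1.10 in the upper runs (SE), and -3.55 ± 0.89 in the upper runs without Ctrl_LNA 48. Gmps (-1.95 and -1.61), Impdh1 (-1.48 and -1.89) and Adss (-1.08 and -1.09) were lower in Val_LNA in both.

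Genes of purine metabolism outside the set, and of the pathways next to it, were called about as often as all genes: across 8 lists 2 of 106 tested genes passed, both downwards (1.89%), against 2.19% of all tested genes in either direction. Of 10 tested genes of purine synthesis outside the set, 0 passed in limma with all embryos. The smallest p there belonged to Adsl, adenylosuccinate lyase, which acts on both the ring and the AMP branch (log2 difference -1.18 ± 0.64, SE; limma adjusted p = 0.385). Without Ctrl_LNA 48 Prpsap1 of this list passed downwards, as 2.63% of all tested genes did. Of 21 genes of purine salvage and breakdown 0 passed. Hprt, which recycles hypoxanthine and guanine, ran from 413 to 2157 with a median of 1184 in Ctrl_LNA and from 145 to 1663 with a median of 712 in Val_LNA. Its log2 difference was -0.96 ± 0.30 (limma adjusted p = 0.0863), and 15 of 16 Val_LNA embryos had less than the median control. Salvage and breakdown genes had a median log2 difference of -0.55, against 0.26 for all genes.

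Of 14 nucleoside mono- and diphosphate kinase genes 1 fell, 0 rose and 13 did not pass, where 1.31% of all tested genes fell and 0.881% rose. That gene was Nme2, a nucleoside diphosphate kinase that charges GDP to GTP, from 828 ± 349 to 390 ± 322 normalised counts (SD, n = 16 each; log2 difference -1.32 ± 0.31, SE; limma adjusted p = 0.0127). It was under the median of the controls in 14 of 16 Val_LNA embryos, but did not pass in edgeR (adjusted p = 0.0838). Nme1 next to it is a close copy, so its reads may be shared. Among 19 pyrimidine genes Uck2, the uridine-cytidine kinase of pyrimidine salvage, fell from 914 ± 429 to 390 ± 205 (SD, n = 16 each; -1.23 ± 0.30, SE; limma adjusted p = 0.0183), under the median of the controls in 16 of 16 Val_LNA embryos, 0 rose and 18 did not pass.

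Purine rings take some of their carbons from formyl-tetrahydrofolate, and of 21 genes of folate one-carbon supply 0 passed with all embryos. Mthfd2, the mitochondrial folate enzyme that feeds this pool, turned on Ctrl_LNA 48. It ran from 1.05 to 3661 with a median of 1086 in Ctrl_LNA and from 40.2 to 760.4 with a median of 232 in Val_LNA. The lowest control was that embryo, and 16 of 16 Val_LNA embryos had less than the median control. The log2 difference was -1.90 ± 0.64 (SE; limma adjusted p = 0.127) with it and -2.47 ± 0.37 (limma adjusted p = 5.78e-05) without it. EdgeR (-2.47, adjusted p = 0.00138) and DESeq2 (-2.39, adjusted p = 9.54e-06) called Mthfd2 lower with all embryos.

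No gene passed in limma among 6 of ribonucleotide reduction, 5 nucleoside transporters and 10 of the AMP-activated kinase, the sensor of AMP. Their smallest p were for Rrm2b (0.74 ± 0.51, SE; limma adjusted p = 0.484), Slc29a1 (-1.13 ± 0.82; adjusted p = 0.509) and Strada (0.66 ± 0.28; adjusted p = 0.27). The median log2 difference of the 106 genes was 0.09, against 0.26 for all tested genes. Without Ctrl_LNA 48 these medians were -0.12 and 0.07, and 4 of the 106 genes passed (3.77%), all downwards. In that fit 409 of all 15559 tested genes (2.63%) passed downwards and 245 upwards.

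The genes whose centred log2 values were most like those of Ampd2 over the 31 embryos, among 8316 compared, were Ppp1r37 (r = 0.62), Dennd4a (0.62), Cers6 (0.61), Gprasp1 (0.61) and Axin2 (0.61). They were picked as the highest of many correlations and are given as a description, without a test. All had a higher r in Val_LNA (0.64 to 0.73) than in Ctrl_LNA (0.24 to 0.49). In Val_LNA 6 of 16 embryos were at 0 for Ampd2, so values at the floor enter these r. No purine gene was among these genes. Their group differences were unlike that of Ampd2: Dennd4a was higher in Val_LNA (1.11 ± 0.43, SE) and the others lay between -0.39 and 0.13.

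The 10 genes are protein-coding and were placed on GRCm38 by GENCODE M21. Ampd2 (ENSMUSG00000027889.17) spans chr3:108074062-108086651 on the minus strand, Gmps (ENSMUSG00000027823.9) chr3:63976106-64022579 on the plus strand, Impdh1 (ENSMUSG00000003500.13) chr6:29200434-29216364 on the minus strand and Adss (ENSMUSG00000015961.8) chr1:177762962-177796511 on the minus strand. Ampd2 exons share 434 bases with Gm12500, an antisense model that had a median of 4.48 normalised counts in Ctrl_LNA and 0.405 in Val_LNA. Gart shares 1014 bases with Gm15964 (medians 83.1 and 135), Ampd3 195 with the abundant Rnf141 (medians 5553 and 6206) and Impdh2 48 with Ndufaf3. Reads in these stretches cannot be told apart by strand. Gmps, Impdh1, Adss and Atic shared no exon with another annotated gene.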

How the data were processed

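The authors deposited a normalised signal per gene and embryo, gene counts divided by DESeq size factors, and those size factors as a ratio per embryo, per the file headers. Bowtie2, STAR, SAMtools and DESeq2 with build mm10 are named in the submitters' processing notes. Versions, roles and the annotation used were not given in the sources used here. Multiplying value and size factor gave whole reads for 1095136 of 1095136 values (100%), within 0.00855 of a whole number. PCR copies count as reads. The genes, lists and tests were chosen with earlier results of these data known.

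The main test was limma 3.58.1 (trend, robust; R 4.3.3) on log2(normalised count + 1) over 15559 genes with at least 10 normalised counts in at least 8 embryos, with Benjamini-Hochberg adjustment. EdgeR 4.0.16 (quasi-likelihood) and DESeq2 1.42.0 were run on recovered reads. The fits were tested on simulated data, in which DESeq2 made more false calls than limma or edgeR. Permutations for correlations used 100000 resamples within groups, and those for marker levels between the groups used 100000 resamples across them. The order of levels was tested by exact sign flips within embryos. Resamples came from numpy 2.4.6 and ranks from scipy 1.17.1. Named were all 10 genes, in each list up to 4 called genes or the 1 with the smallest p, and the 5 genes most like Ampd2 with a mean of at least 50. GENCODE M21 matched 34179 of 34223 identifiers.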

Additional observations from a re-analysis of the deposited data

How the results depend on the processing

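The count of 4 purine genes called lower in Val_LNA was 2 in the lower runs, 0 in the upper runs and 1 in the upper runs without Ctrl_LNA 48, which were added after the data were seen; each holds 8 or 7 embryos a group, and with 1 embryo left out it ranged from 3 to 5. Companion genes called lower (2) numbered 4 in DESeq2 without Ctrl_LNA 48, 1 in either run, 4 with genes detected as a covariate, 4 with the added oocyte marker covariate, and 2 to 4 with 1 embryo left out (4 without Val_LNA 7 or Ctrl_LNA 48); those called higher (0) numbered 1 with pseudocount 8, 2 with genes detected, 1 with the oocyte marker covariate, and 0 to 1 with 1 embryo left out (1 without Ctrl_LNA 34). For the 2 called companion genes, the adjusted p over the alternatives ran from 0.00212 to 0.447 (Nme2) and from 0.00115 to 0.574 (Uck2). Over all tested genes 204 were called lower and 137 higher. Lower calls were 338 in DESeq2, 402 in DESeq2 without Ctrl_LNA 48, 83 and 33 in the lower and upper runs, 363 with genes detected, 344 with oocyte markers and 124 in the upper runs without Ctrl_LNA 48. Higher calls were 29 in edgeR, 206 in DESeq2, 87 without a filter, 91 with at least 50 counts in 16 embryos, 61 with centring on the median gene (where 300 were lower), 85 in edgeR and 266 in DESeq2 without Ctrl_LNA 48, 2 in the upper runs, 7 there without Ctrl_LNA 48, 373 with genes detected and 264 with oocyte markers. With 1 embryo left out they ranged from 176 to 409 lower and 100 to 245 higher, each highest without Ctrl_LNA 48. Of 10 correlations 2 passed, and 5 with Ctrl_LNA 48 included. Rrm2b turned from 0.74 to -0.35 in the lower runs. Ampd2 stayed below 0 in each alternative that tested it, from -4.22 to -2.26; the filter at 50 counts removed it. The cause of these shifts was not tested. No paired analysis was possible because the groups share no replicate numbers. Low counts limit Ampd2 and Atic most.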
